A study of Mus musculus with 15 samples.

Results

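Dimethylation of lysine 4 of histone H3 (H3K4me2) was mapped by ChIP-seq in newborn mouse lens and in αTN4 cells, and the lens peaks with no counterpart in the cells are described here. A lens peak was counted as lens-only where it shared not a single base with an H3K4me2 peak of control αTN4 cells or of αTN4 cells with reduced Pax6. Of 56214 lens peaks, 30334 met this rule, or 54.0% (95% Wilson interval 53.5 to 54.4), and the other 25880 are called shared. The peaks were chosen by measured values, namely the positions of the called peaks in the 3 H3K4me2 lists, so the number of lens-only peaks, and their strength and width in lens, are descriptions of how the members were chosen and not tests.

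The lens sample was dissected tissue of CD-1 mice at 1 day of age. αTN4 is a line of mouse lens epithelium that carries the T antigen of SV40, and it was infected with lentivirus carrying a control shRNA or a Pax6 shRNA (Pax6 KD), put under puromycin for 14 days to give stable lines, and grown in DMEM F-12 with serum. All 3 H3K4me2 libraries used the same antibody lot. H3K4me1, H3K4me3, RNA polymerase II (Pol2) and Pax6 regions of αTN4 cells were not used to choose the peaks and were read at the chosen sites. Each condition had 1 library listed, so there is no replicate error and no p-value. The names of the control H3K4me2 peaks mention both replicates, so that list may be pooled. The intervals given cover counting error only, and the depth of the peak libraries is unknown. The lens list carries names that differ in form from those of the αTN4 histone lists, which bear a tag (jcorr) whose meaning is not given in the sources used here. A difference in peak calling between tissue and cells cannot be told apart from a difference in chromatin. In dissected tissue, a mark on few cells and a weak mark on many cells cannot be told apart either.

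H3K4 methylation is laid down by the Mll and Set1 families of methyltransferases. H3K4me3 sits at the starts of active genes, H3K4me1 lies mostly at enhancers, and H3K4me2 is found at both, including enhancers and promoters that are primed but not in full use. A newborn lens holds a single layer of epithelial cells and a mass of fibre cells, which fill with crystallins and lose their organelles. Blood vessels surround the lens at this age, and retina, ciliary body and cornea lie next to it.

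Strong distal lens-only sites, a crystallin promoter and the lens-only sites with the strongest Pax6 peaks of αTN4 cells are shown by their summits, so that their base composition can be compared. Each window runs from 100 bp before to 100 bp after the lens summit on the plus strand of mm9. Capitals mark every CpG, the dinucleotide that is rare in the genome outside CpG islands.
Peak in an exon of Zfp697, chr3:98232145-98232345: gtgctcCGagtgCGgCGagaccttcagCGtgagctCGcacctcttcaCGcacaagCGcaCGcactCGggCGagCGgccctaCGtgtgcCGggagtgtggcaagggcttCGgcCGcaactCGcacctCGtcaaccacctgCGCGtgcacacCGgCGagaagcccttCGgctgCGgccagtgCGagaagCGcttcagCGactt
Distal peak 78.9 kb from Epb4.1l3, chr17:69425433-69425633: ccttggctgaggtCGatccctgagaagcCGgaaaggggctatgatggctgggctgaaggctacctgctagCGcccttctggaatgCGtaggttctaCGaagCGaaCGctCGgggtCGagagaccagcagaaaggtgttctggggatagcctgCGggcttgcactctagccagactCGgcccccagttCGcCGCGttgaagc
Crym promoter, chr7:127344903-127345103: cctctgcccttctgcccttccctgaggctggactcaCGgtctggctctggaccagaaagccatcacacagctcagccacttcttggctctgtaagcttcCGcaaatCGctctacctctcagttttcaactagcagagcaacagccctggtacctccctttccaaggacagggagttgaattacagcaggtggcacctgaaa
BC030476 intron with a Pax6 peak, chr15:34396002-34396202: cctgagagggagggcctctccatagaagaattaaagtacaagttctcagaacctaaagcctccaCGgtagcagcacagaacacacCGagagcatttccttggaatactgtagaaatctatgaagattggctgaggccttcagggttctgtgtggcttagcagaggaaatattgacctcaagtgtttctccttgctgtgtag
Src with a Pax6 peak, chr2:157282979-157283179: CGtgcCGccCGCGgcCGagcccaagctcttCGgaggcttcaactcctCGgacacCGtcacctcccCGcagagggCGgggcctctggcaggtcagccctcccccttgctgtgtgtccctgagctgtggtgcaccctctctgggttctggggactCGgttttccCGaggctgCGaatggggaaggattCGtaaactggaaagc
Wls intron with a Pax6 peak, chr3:159514713-159514913: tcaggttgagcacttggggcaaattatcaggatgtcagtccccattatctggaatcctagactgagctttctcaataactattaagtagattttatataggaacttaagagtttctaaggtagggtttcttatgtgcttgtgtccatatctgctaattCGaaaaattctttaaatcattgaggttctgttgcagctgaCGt
The Zfp697 and Epb4.1l3 windows hold 26 and 14 CpGs, with a GC content of 67.7% and 61.2%. The Crym window holds 3 CpGs at 54.7% GC. The BC030476 and Wls windows hold 2 CpGs each, at 46.8% and 37.3% GC. The Src window holds 14 CpGs at 65.7% GC, close to the Epb4.1l3 window. The lens peaks behind the windows have fold enrichments of 36.6, 34.8, 16.2, 3.57, 11.8 and 6.58, in the order printed.

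Lens-only peaks were narrow and weak beside the shared ones. Their median width was 480 bp (quartiles 292 and 859), against 1230 bp (605 and 1984) for shared peaks. Their median fold enrichment over the background estimated by the peak caller was 5.0 (4.03 and 7.25), against 16.6 (6.58 and 24.0). They made up 54.0% of the peaks but covered 21.1 Mb, or 35.8% of the sequence under lens peaks. At the edge of the rule, the 258 lens-only peaks within 100 bp of a cell peak had a median fold of 4.48 and a median width of 352 bp. The 253 shared peaks that met a cell peak by under 100 bp had a median fold of 4.30 and a median width of 329 bp. Few members sat near that edge, since the nearest cell H3K4me2 peak lay at a median distance of 12.2 kb (quartiles 3.58 and 38.1), and 10.1% of lens-only peaks had one within 1 kb.

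The lens-only share depended on strength and place together. Within 2 kb of a protein-coding transcription start (promoter peaks), it fell from 64.8% of 1094 peaks with a fold under 4 to 8.29% of 5655 peaks with a fold of 25 or more (7.60 to 9.04). Farther from starts (distal peaks), it fell from 81.5% of 8429 to 22.6% of 461 (19 to 26.6). In each class of strength the distal share was higher than the promoter share. In all, 1384 lens-only peaks had a fold of at least 20, of which 1051 were promoter peaks and 333 were distal.

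**Figure D1:**
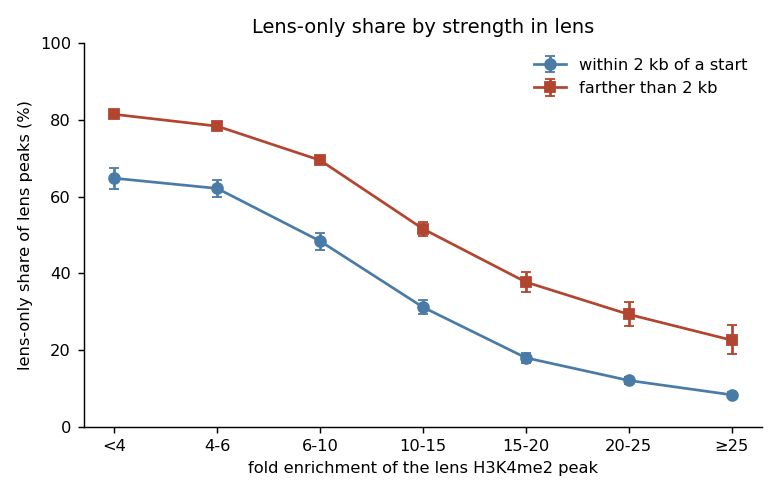
Share of lens H3K4me2 peaks that are lens-only (%, vertical axis) by fold enrichment of the lens peak (horizontal axis), for promoter peaks (circles) and distal peaks (squares), with 95% Wilson intervals. Both shares fall with strength, from 64.8% to 8.29% at promoters and from 81.5% to 22.6% at distal sites.

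Most lens-only peaks were distal, which did not hold among strong ones: with a fold of at least 10, 52.1% of 4636 were promoter peaks. Of the 30334, 5232 (17.2%, 16.8 to 17.7) were promoter peaks, against 16034 of 25880 shared peaks (62.0%, 61.4 to 62.5). Distal lens-only peaks lay at a median of 34.9 kb from the nearest start, and distal shared peaks at 21.7 kb. The summits of distal lens-only peaks were in introns in 50.4% of cases, between genes in 44.6% and in exons in 5.04%. Distal shared summits were in introns in 43.3% and between genes in 52.8%. By chromosome the lens-only share of lens peaks ran from 40.1% (37.4 to 42.9) on the X chromosome to 65.6% (63.7 to 67.5) on chromosome 12. All 9 lens peaks of the Y chromosome were lens-only, and neither αTN4 list has a peak there.

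Of the 10 lens-only peaks with the highest −log10 q, 9 are described here, with folds of 30.4 to 38.5 and widths of 1434 to 3083 bp. The highest −log10 q, 214, belonged to a peak at the start of Tmem181b-ps (chr17:6474282-6476850), which lies in duplicated sequence. The promoter of Frem2 (chr3:53459737-53462614), a basement membrane protein gene of developing epithelia, had a fold of 38.5, and the nearest cell H3K4me2 peak was 129 kb away. The promoters of 1700029G01Rik, Palm2, Gm2237, Enox1, Ppp1r3g and Kit came next, along with the Zfp697 exon. Kit, the receptor of stem cell factor, had a peak 3083 bp wide with a fold of 36.3 (chr5:75970293-75973375). Gm2237 also lies in duplicated sequence. None of the 9 overlapped an αTN4 H3K4me1 island. Such islands of control cells were also rare over all lens-only peaks with a fold of at least 20, at 3.24% of promoter and 6.31% of distal ones.

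The 5 widest lens-only peaks were 8630 to 12670 bp wide, and 2 of them lay at homeobox genes. The widest, 12670 bp, covered the start of Hmx1 (chr5:35731569-35744238), a homeobox gene of the eye and ear. A cell peak lay 0.445 kb away, and αTN4 cells had an H3K4me2 peak within 2 kb of the Hmx1 start. The second, 11161 bp, covered the start of 4930447C04Rik and came within 2 kb of the start of Six6 (chr12:74039484-74050644). Six6 encodes a homeobox factor of eye development, and the nearest cell peak was 90.2 kb away. A peak of 10114 bp lay in an intron of Ccdc85c, 0.174 kb from a cell peak. The fourth, of 9578 bp (chr14:65204003-65213580), held the lincRNA A930011O12Rik and the miRNA gene Mir124a-1. The fifth, of 8630 bp, lay near Gm10742 on chromosome 3. Of 1577 annotated miRNA genes, 51 overlapped a lens-only peak and 113 a shared one, where lens-only peaks make up 35.8% of the sequence under lens peaks.

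The strong lens-only sites were CpG-rich, also far from annotated starts. A summit window was counted as CpG-dense with at least 10 CpGs in its 201 bp. Among distal lens-only peaks with a fold under 6, 3.02% of 17745 windows were CpG-dense (2.78 to 3.28), and with a fold of at least 20 it was 72.1% of 333 (67.0 to 76.6). Shared distal peaks of the same classes had 1.89% of 4558 (1.53 to 2.32) and 46.2% of 910 (42.9 to 49.4). Only 54 of the 333 strong distal lens-only peaks, or 16.2%, lay within 2 kb of the start of an annotated transcript of any type, against 238 of 910 shared ones, or 26.2%. The Zfp697 and Epb4.1l3 windows printed above are of this kind. At promoters the CpG-dense share was 44.1% of lens-only and 31.5% of shared peaks. At shared promoter peaks, 201 bp windows centred 500 bp from the summit held 9.69 CpGs on average, against 8.20 at the summit. Lens-only promoter peaks held 6.55 and 10.0. The part of the summit's position relative to the start was not tested.

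Short words were counted in the same windows, on either strand, as descriptions of the sequence and not as binding sites. The AP-1 word TGANTCA, the target of Fos and Jun proteins, was least frequent at lens-only sites. It was in 4.45% of distal lens-only windows (4.21 to 4.72), in 8.01% of distal shared windows (7.49 to 8.57) and in 11.7% (11.4 to 12) of the windows of distal control αTN4 peaks without lens overlap. In windows 500 bp to either side it was in 5.04%, 6.41% and 9.97% of these sets. Among distal lens peaks with a fold of at least 10, it was in 3.52% of lens-only (2.83 to 4.37) and 4.68% of shared windows (3.99 to 5.49), and these intervals overlap. The Runx word TGTGGT was in 12.3% of lens-only, 12.7% of shared and 17.3% of control windows without lens overlap.

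The homeobox word TAATTA was in 6.42% of distal lens-only windows (6.13 to 6.73), 4.47% of shared (4.08 to 4.90) and 4.37% of control windows without lens overlap (4.16 to 4.58). Its flanks held it more often than the summits, in 6.77%, 5.47% and 6.12% of windows. In distal lens peaks with a fold of at least 10 the values were 3.33% (2.66 to 4.17) in lens-only and 3.63% (3.02 to 4.35) in shared windows, and these intervals overlap. The E-box word CAGCTG was in 16.2% of distal lens-only windows (15.7 to 16.6) and in 10.5% of their flanks, and in 15.5% of shared windows (14.8 to 16.2) and 10.8% of their flanks. The summit intervals overlap. The Meis word TGACAG was in 17.6% of lens-only (17.1 to 18.1) and 15.3% of shared distal windows (14.6 to 16.1). The Maf word TGCTGA was in 18.6% (18.1 to 19) and 17.2% (16.5 to 17.9). TTCACGC, a core of the Pax6 paired domain site, was in 0.952% (0.839 to 1.08) and 0.924% (0.754 to 1.13), and these intervals overlap. In control windows without lens overlap it was in 0.437% (0.375 to 0.510). The flanks of these sets held it in 0.548%, 0.589% and 0.387% of windows. GC content also differed between the sets: its median was 50.2% in distal lens-only, 51.2% in shared and 46.3% in control windows without lens overlap. Its part in the word counts was not tested.

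**Figure D2:**
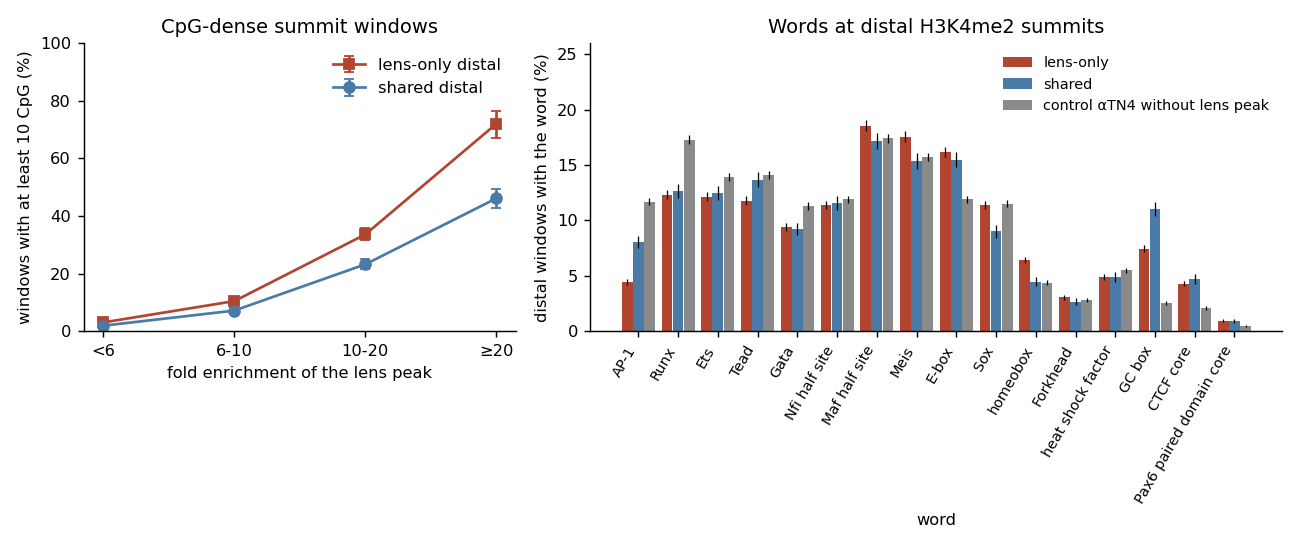
Left, share of distal summit windows with at least 10 CpGs (%) by fold enrichment of the lens peak, for lens-only (squares) and shared peaks (circles). Right, share of distal summit windows (%) with each of 16 words in lens-only peaks, shared peaks and control αTN4 peaks without a lens peak (bars), with 95% Wilson intervals as thin lines in both panels. Strong lens-only windows are CpG-dense in 72.1% of cases, and the AP-1 word rises from 4.45% to 8.01% and 11.7% across the 3 sets.

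The αTN4 marks that the rule did not use were rare at lens-only sites. Of the 25102 distal lens-only peaks, 3560 (14.2%, 13.8 to 14.6) overlapped an H3K4me1 island of control cells, against 6280 of 9846 distal shared peaks (63.8%, 62.8 to 64.7). In Pax6 KD cells the shares were 9.40% (9.05 to 9.77) and 41.2% (40.2 to 42.1). The islands of control cells cover 5.66% of chromosomes 1 to 19 and X, and those of Pax6 KD cells 3.68%. Pol2 peaks overlapped 41 distal lens-only peaks (0.163%) and 2120 shared ones (21.5%). H3K4me3 peaks of control cells overlapped 22 (0.0876%) and 1096 (11.1%).

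At promoters, H3K4me3 of control cells was at 82 of 5232 lens-only promoter peaks (1.57%, 1.26 to 1.94) and at 12141 of 16034 shared ones (75.7%, 75.1 to 76.4). Pol2 was at 80 (1.53%, 1.23 to 1.90) and 12185 (76.0%, 75.3 to 76.6). H3K4me1 was at 531 (10.1%) and 7471 (46.6%). In Pax6 KD cells, H3K4me3 was at 71 lens-only promoter peaks (1.36%). Of the lens-only promoter peaks with a fold of at least 20, 0 of 1051 met a Pol2 peak, which allows a share of up to 0.364% (upper Wilson bound), while 84.6% of 9437 shared ones did.

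The contrast in H3K4me1 was present among weak and strong peaks. Among distal peaks with a fold under 6, H3K4me1 of control cells was at 15.2% of lens-only and 74.1% of shared peaks. With a fold of at least 20 it was at 6.31% of 333 lens-only (4.16 to 9.45) and at 45.3% of 910 shared peaks (42.1 to 48.5). Distance to the cell mark moved with it: 51.8% of the 3077 lens-only peaks within 1 kb of a cell H3K4me2 peak overlapped an H3K4me1 island. The share was 18.5% from there to 10 kb, 4.70% from 10 to 50 kb and 0.495% of 6062 beyond 50 kb. Of the 4091 lens-only peaks with H3K4me1 in control cells, 1593 lay within 1 kb of a cell H3K4me2 peak and 30 beyond 50 kb.

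**Figure D3:**
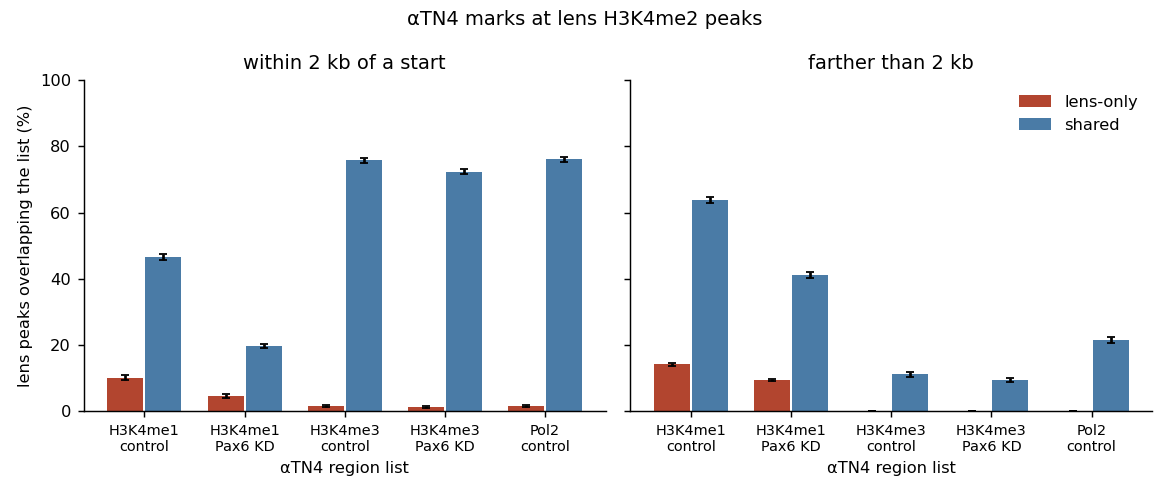
Share of lens H3K4me2 peaks (%, vertical axis) that overlap each αTN4 region list (horizontal axis), for promoter peaks (left) and distal peaks (right), lens-only and shared, with 95% Wilson intervals. Control H3K4me3 is at 1.57% of lens-only and 75.7% of shared promoter peaks, and control H3K4me1 is at 14.2% of lens-only and 63.8% of shared distal peaks.

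A group of 998 H3K4me1 islands of control cells overlapped a lens-only peak and no cell H3K4me2 peak. They had a median of 16.8 ChIP reads per kb (quartiles 14.4 and 20), and the 10254 islands with shared but no lens-only peaks had 21.1 (17.6 and 25.6). Islands with no H3K4me2 in any of the 3 lists had 17.6. Of the 2172 islands with both a lens-only peak and cell H3K4me2, 65.7% (63.7 to 67.7) overlapped an island in Pax6 KD cells. The share was 51.6% of islands with cell but no lens H3K4me2, and 28.4% of those with no H3K4me2. The 2172 had a median width of 5000 bp and 100 ChIP reads. The 998 had 3200 bp and 51 reads, and islands with no H3K4me2 2600 bp and 45. The part of width and reads in these shares was not tested. Of the 998, 377 (37.8%, 34.8 to 40.8) overlapped an island in Pax6 KD cells, against 45.3% (44.3 to 46.3) of the 10254 and 46.2% of all 38007 islands. The island lists of control and Pax6 KD cells differ in number (38007 and 18417), and the part of depth in the lower overlap was not tested.

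Pax6 peaks of control αTN4 cells fell on few lens-only sites. Of 504 Pax6 peaks, 193 overlapped a lens H3K4me2 peak, and 26 of the 193 (13.5%) overlapped a lens-only one. Lens-only peaks are 54.0% of all lens peaks and 71.8% of distal ones. A Pax6 peak was at 0.0857% of lens-only and 0.649% of shared peaks. The 26 had a median lens fold of 5.33, Pax6 folds from 4.56 to 12.7, and a median Pax6 fold of 6.81 against 7.0 for all Pax6 peaks. H3K4me1 of control cells was at 9 of the 26 (34.6%, 19.4 to 53.8), against 13.5% of all lens-only peaks, and H3K4me1 of Pax6 KD cells at 6 (23.1%, 11 to 42.1), against 8.59%. It was in both at 4 sites, and none had Pol2, which was at 0.399% of all lens-only peaks. Only 3 were promoter peaks.

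The strongest of the 26, with a Pax6 fold of 12.7, lay in an intron of BC030476 (Pax6 peak chr15:34396076-34396483), in H3K4me1 islands of both control and Pax6 KD cells. The next was at Src, a tyrosine kinase gene (chr2:157283311-157283580, fold 9.35), where a cell H3K4me2 peak lay 0.092 kb from the lens peak. It was followed by Wls, the transport protein of Wnt ligands, with a Pax6 peak in an intron (chr3:159514939-159515251, fold 9.13). The last pair of the strongest 5, both with a Pax6 fold of 8.07, lay 166 kb from Ell2 and at Kcne1. Src, Wls and Kcne1 had H3K4me1 in control and not in Pax6 KD cells, and the Ell2 site had it in neither. Of the 26 sites, 5 had it in control cells only and 4 in both. Over all lens-only peaks, 1959 of the 4091 with H3K4me1 in control cells also had it in Pax6 KD cells. The position of the lens summit minus that of the Pax6 summit was -198, -366 and -313 bp at the first 3, so the Pax6 summits lie outside the windows printed above. The other 21, named after their values were seen, include sites near Hmga2, Nkx6-2, Ank3, Glis3, Tle4 and Otx1.

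Promoters were then read gene by gene. Of 22238 protein-coding genes, 14869 had a lens H3K4me2 peak within 2 kb of a start. At 2525 of them the promoter held lens-only peaks and no cell peak, which is 17.0% (16.4 to 17.6) of the genes with a lens promoter peak and the background for the gene lists below. The strongest peak at these promoters had a median fold of 16.1 and a median width of 1295 bp, against 24.3 and 1935 bp at promoters marked in both. H3K4me3 of control cells was within 2 kb of the starts of 9 of the 2525 genes (0.356%) and Pol2 of 14 (0.554%), against 88.3% and 85.6% of 12311 genes marked in both. Of the 6621 genes with promoter H3K4me2 in neither lens nor cells, 0.136% had H3K4me3 and 0.227% Pol2. Of all genes, 14716 or 66.2% had a lens-only peak within 50 kb of the gene, which is the background for a peak near a single gene. For counts by nearest start, the background is the lens-only share of 54.0% of all lens peaks and 71.8% of distal ones. The members named with such counts are those with most lens-only peaks, so their counts do not stand for their lists.

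Crystallins, the soluble proteins that give the lens its refractive power, showed lens-only promoters at 7 of the 12 members with a lens promoter peak (58.3%, 32 to 80.7), of 17 in the list. These were Crybb2, Crybb3, Crygc, Crygd, Cryge, Crygn and Crym. The peaks were modest in strength, with folds of 3.69 at Crybb2, 6.06 at Crybb3, 6.29 at Crygc, 7.47 at Crygd, 5.0 at Cryge and 4.79 at Crygn. Crym, a thyroid hormone binding protein expressed well beyond lens, was apart with 16.2. The gamma-crystallins Crygc, Crygd and Cryge stand next to each other on chromosome 1, with starts at least 38.3 kb from a cell H3K4me2 peak. None of the 7 promoters held H3K4me1, H3K4me3 or Pol2 in αTN4 cells. Of all 2525 genes with a lens-only promoter, 8.99% had H3K4me1 of control cells there. Cryaa, Cryab, Cryba2, Cryba4 and Crybb1 had H3K4me2 in both lens and cells. Cryba1, Cryga, Crygb, Crygf and Crygs had no promoter peak in either list. Cryba4 was the nearest start of 19 lens-only peaks among 24 lens peaks, the most of the list, followed by Crybb3 (5 of 5), Crygn (4 of 6) and Crybb2 (3 of 3).

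Fibre membrane, channel and cytoskeleton genes had lens-only promoters at 6 of 16 members with a lens promoter peak (37.5%, 18.5 to 61.4). Bfsp1 and Bfsp2 encode the beaded filament proteins of fibre cells, and their promoter peaks had folds of 9.74 and 9.87. The Bfsp2 peak was 3039 bp wide and the nearest cell peak lay 36 kb from the start. There, 10 of the 11 lens peaks nearest to its start were lens-only. Mip, the main water channel of fibre membranes, had a peak of 499 bp with a fold of 6.06, and Lim2, a fibre membrane protein, one of 1108 bp with 8.35. Grifin, a galectin-related fibre protein, had a fold of 6.58, and Birc7 4.21 in a peak of the lowest width in the list, 201 bp. The connexin gene Gja3 had H3K4me2 in both lens and cells. Efna5, an ephrin whose promoter is marked in both, was nearest to 41 lens-only peaks of 46, Cdh2, the N-cadherin gene, to 20 of 29, and Slc7a11, a cystine transporter gene, to 9 of 11. In the organelle clearance list, 2 of 8 had a lens-only promoter: Nrl, a Maf family factor known from rod photoreceptors, and Capn3, a calpain, with folds of 6.85 and 5.0. All 6 lens peaks nearest to Nrl and all 5 nearest to Capn3 were lens-only, as were 3 of 6 at Hspb1 and 3 of 4 at Pla2g16.

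Transcription factors of the lens list had lens-only promoters at 7 of 30 members (23.3%, 11.8 to 40.9), an interval that includes the background of 17.0%. They were Sox11, Foxe3, Six6, Tcfap2b, Otx2, Mab21l2 and Fli1. Foxe3, a forkhead factor of the lens epithelium, had a fold of 12.6, and its nearest cell H3K4me2 peak lay 11.4 kb from its start. Sox11 had a fold of 28.7 in a peak of 8626 bp, and Mab21l2 21.9 in 7245 bp. The promoters of Pax6, Prox1, Maf, Sox2 and Pitx3, central to lens formation, were marked in both. Of the lens peaks nearest to starts of this list, 73.4% were lens-only, against 54.0% of all lens peaks and 71.8% of distal ones. Among genes whose promoter was marked in both, Sox2 was the nearest start of 44 of 51 lens peaks, Zeb2 of 27 of 36 and Prox1 of 24 of 34. Around Otx2, whose promoter was lens-only, it was 25 of 25. Around Pax6 itself, 14 of the 17 lens peaks nearest to its start were lens-only.

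Epithelial genes had lens-only promoters at 4 of 12 members (33.3%, 13.8 to 60.9): Foxe3, Cdh1, Krt18 and Slc38a3. Cdh1, the E-cadherin gene, had a fold of 26.1 and no H3K4me1, H3K4me3 or Pol2 in αTN4 cells. After Pax6, the starts with most lens-only peaks were Ezr (12 of 16), Igfbp7 (12 of 20), Pdgfra (8 of 13) and Slc38a3 (8 of 8). In the signalling list, 6 of 30 were lens-only (20%, 9.51 to 37.3): Fgf1, Fgf2, Bmpr1b, Bmp4, Bmp7 and Sfrp1, which are 2 fibroblast growth factors, 1 BMP receptor, 2 BMP ligands and a Wnt antagonist. Their folds ran from 7.11 at Fgf1 and Bmp4 to 30.5 at Sfrp1. Ephb2 was nearest to 33 lens-only peaks of 36 Igf1r to 24 of 32, Fgfr2 to 16 of 19 and Sfrp1 to 16 of 16. In the capsule and matrix list, 3 of 21 were lens-only (14.3%, 4.98 to 34.6): Fbn2, Col9a1 and Col2a1, with folds of 19.5, 19.5 and 27.1. Around Col9a1 all 18 lens peaks nearest to its start were lens-only, as were all 9 at Fbn2, 8 of 23 at Col4a2, 5 of 10 at Col18a1 and 5 of 8 at Col2a1. In the list of sine oculis, Eya, Dach, Meis and Pbx homeobox and partner genes, 4 of 19 were lens-only: Six2, Six6, Eya2 and Dach2. In this list Dach1 was nearest to 18 lens-only peaks of 23, Six3 to 17 of 24 and Pbx3 to 15 of 20.

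Marker lists of retina and of endothelium had lens-only promoters in more than 17.0% of their marked members. In the retina and neuron list, 12 of the 16 members with a lens promoter peak were lens-only (75%, 50.5 to 89.8), of 20 members in all. They included Crx, Nrl, Atoh7, Pou4f2, Isl1, Neurod1, Neurod4, Rbfox3, Snap25, Elavl3 and Elavl4, with folds from 6.85 at Nrl to 33.7 at Atoh7. Of the lens peaks nearest to these 20 starts, 111 of 122 were lens-only (91.0%), against 54.0% of all lens peaks and 71.8% of distal ones. Among them were all 17 at Rbfox3, all 16 at Crx and all 9 at Neurod4. Crx, a photoreceptor factor, had a group of 16 lens-only peaks in 21.0 kb with folds up to 8.43. Rcvrn and Gnat1, photoreceptor genes, had no promoter peak in lens or cells, and Pde6b had one in cells only. Gap43, Stmn2, Syt1 and Tubb3 had H3K4me2 in both. The part of retinal cells in the lens library was not tested.

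Endothelial markers had lens-only promoters at 8 of 10 (80.0%, 49.0 to 94.3), of 14 in the list: Cdh5, Kdr, Flt1, Cldn5, Erg, Sox17, Sox18 and Esam, with folds from 7.59 at Cdh5 to 23.4 at Kdr. By nearest start, lens-only peaks numbered 10 of 12 at Flt1, 10 of 10 at Kdr, 5 of 6 at Cldn5, 4 of 12 at Cdh5 and 4 of 5 at Pecam1. Over the whole list it was 49 of 68 (72.1%), near the 71.8% of all distal lens peaks. Of the other 6 markers, Pecam1 and Robo4 had promoter H3K4me2 in αTN4 cells alone, Egfl7 and Tek in both, and Emcn and Tie1 in neither. The part of endothelial cells in the lens library was not tested. Of the 18 macrophage and blood markers, 4 had a lens promoter peak and 1 of them, Tal1, was lens-only. In the pigment and ciliary list it was 2 of 7, Dct and Ttr, in the cornea and surface ectoderm list 3 of 7, Krt15, Trp63 and Grhl3, and in the mesenchyme, pericyte and muscle list 4 of 15, Cspg4, Des, Myod1 and Myog. The intervals of these 4 lists include 17.0%. By nearest start, Dct and Otx1 had 14 lens-only peaks each (of 17 and 16), Mitf 9 of 12 and Rlbp1 7 of 8. Foxc2 had 11 of 17, Pdgfrb 4 of 8, Cspg4 4 of 6, Grhl3 7 of 8, Trp63 3 of 4 and Tal1 5 of 5.

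The other lists ranged widely, and in them only the ribosomal protein genes had an interval wholly below 17.0%. Of the listed AP-1 and Ets genes 0 of 14 were lens-only, which allows a share of up to 21.5% (upper Wilson bound). The list leaves out Fli1 and Erg, Ets family genes named above with lens-only promoters. Of the cytosolic ribosomal protein genes it was 0 of 76 (up to 4.81%). Lens-only peaks still lay nearest to some starts of both lists, 8 of 13 at Jun, 6 of 9 at Etv5, 5 of 9 at Elk3 and 5 of 15 at Ets1. Among ribosomal protein genes it was 15 of 19 at Rps24, 14 of 17 at Rpl38, 13 of 14 at Rplp1 and 8 of 12 at Rpl31. Over the whole lists the shares were lower, 37 of 89 (41.6%) for AP-1 and Ets genes and 85 of 227 (37.4%) for ribosomal protein genes. Of all lens peaks, 54.0% were lens-only. Among Hox genes, lens-only promoters were 3 of 27 (11.1%, 3.85 to 28.1), Hoxb2, Hoxd1 and Hoxd4. Among clustered protocadherins it was 3 of 8 (37.5%, 13.7 to 69.4), Pcdhb1, Pcdhb14 and Pcdhb19, while Pcdhgc5 was nearest to 22 lens-only peaks of 29. Of 1113 olfactory receptor genes 5 had a lens promoter peak and 4 were lens-only (80%, 37.6 to 96.4), above 17.0%. These were Olfr1419, Olfr91, Olfr94 and Olfr95, with folds from 3.69 to 15.4.

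**Figure D4:**
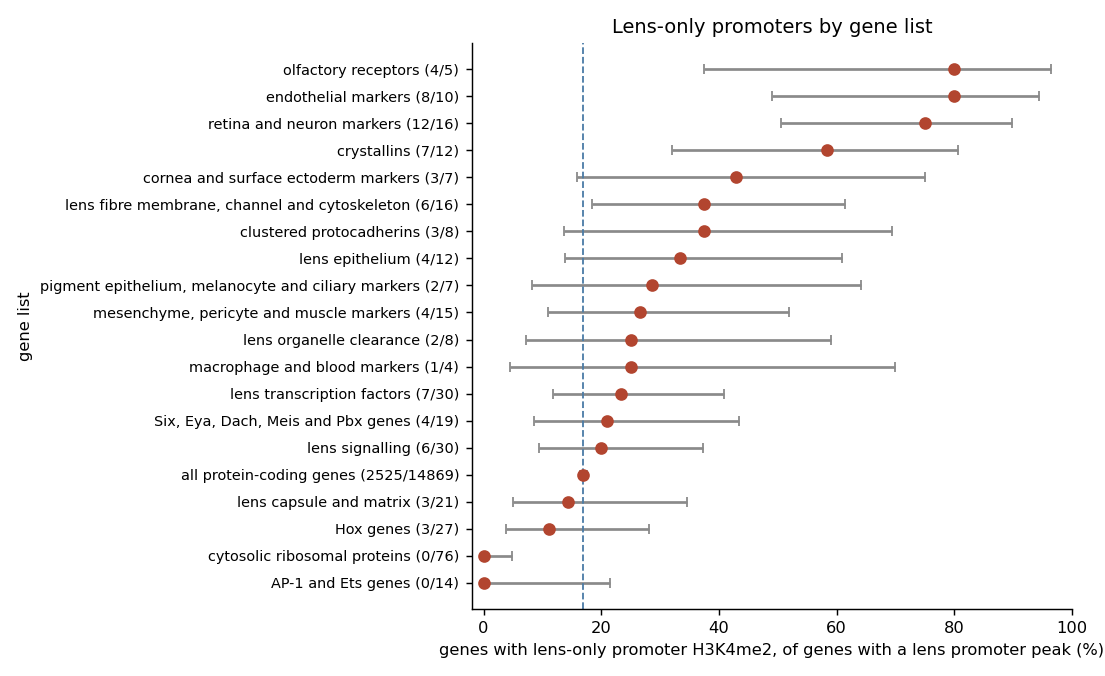
Share of genes whose promoter H3K4me2 is lens-only, of the genes with a lens promoter peak (%, horizontal axis), by gene list (vertical axis, with counts), with 95% Wilson intervals. The dashed line is the 17.0% over all protein-coding genes. Retina and neuron markers (75%), endothelial markers (80.0%) and olfactory receptors (80%, with 5 marked genes) lie far above it. Crystallins are at 58.3%, and ribosomal protein genes at 0.

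Lens-only peaks were spread over many genes, 9152 by nearest start, and a minority lay in long runs. The gap from one lens-only peak to the next had a median of 20.8 kb, and 41.7% of gaps were at most 12.5 kb, against 19.8 kb and 43.3% for shared peaks. The variance of the counts per 1 Mb window was 10.1 times their mean for lens-only and 13.0 times for shared peaks. The distal lens-only peaks were closer together than the distal shared ones, with a median gap of 23.9 kb against 56.6 kb, but they are also more numerous. Peaks at most 12.5 kb apart were stitched into 17683 groups. Of these, 11521 held a single peak and 791 held 5 or more, with 18.4% of all lens-only peaks. By nearest start, 107 genes had 20 or more lens-only peaks and together held 9.59% of them. A gene far from its neighbours collects peaks over a longer stretch, so these counts rise with the empty sequence around it.

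Casz1, a zinc finger factor, led with 66 lens-only peaks of 75, followed by Zfp608 with 59 of 82, Med13l with 50 of 59, Gse1 with 47 of 66 and Cadm1 with 46 of 50. The rest of the first 10 were Auts2 and Sox2 with 44 each, Efna5 and Sdk2 with 41 each, and Celf4 and Zfhx3 tied at 40. All 44 lens peaks at Auts2 and all 41 at Sdk2 were lens-only, and neither promoter had H3K4me2 in αTN4 cells. The promoters of Casz1, Zfp608, Med13l, Gse1, Cadm1, Sox2, Efna5 and Zfhx3 did have it; that of Celf4 did not. Control H3K4me1 was at 24 of the 47 lens-only peaks of Gse1 and at 1 of the 66 of Casz1. Median folds at these 11 genes were low, from 4.23 at Cadm1 to 5.19 at Auts2.

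**Figure D5:**
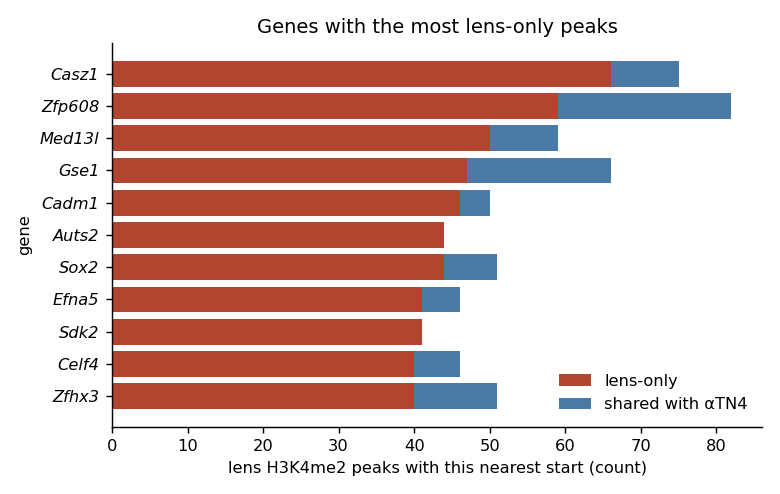
Number of lens H3K4me2 peaks (horizontal axis) whose nearest start belongs to each of the 11 genes with the most lens-only peaks (vertical axis), split into lens-only and shared. Casz1 leads with 66 lens-only of 75, and Auts2 (44) and Sdk2 (41) have no shared peak.

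The largest stitched group held 48 lens-only peaks in 125 kb of Casz1 (chr4:148184468-148309681), and 15 cell H3K4me2 peaks, counted over both lists, lay between them. The next held 30 peaks in 93.3 kb (chr19:7177838-7271121), 18 of them nearest to Flrt1. The third group, of 27 peaks in 94.1 kb of Sdk2 (chr11:113836298-113930366) had no cell H3K4me2 peak and no H3K4me1 island of control cells inside. Sdk2 is a cell adhesion gene known from retinal synapses. The fourth held 26 peaks in 78.8 kb, 25 of them nearest to Nxn (chr11:76131194-76209971), and the fifth 24, led by Ccdc85c (chr12:109450109-109506707).

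In some stretches no lens peak was shared. Of the 1677 windows of 1 Mb with at least 10 lens peaks, 78 were lens-only in at least 90% of their peaks and 30 in all. The longest run of lens-only peaks without a shared lens peak between them held 70, at chr14:3049259-8491778. All 70 lie in sequence with copies elsewhere in the genome, 51 are promoter peaks, and neither cell list has an H3K4me2 peak inside. The next runs held 66 peaks each, around Sdk2 and Klhdc7a, and 59 around Auts2, and none of these peaks is in duplicated sequence. Cell H3K4me2 peaks that meet no lens peak do lie inside them, 2 at Sdk2, 17 at Klhdc7a and 20 at Auts2. How reads with several matches were treated is not given in the sources used here. In all, 640 lens-only peaks (2.11%) and 700 shared peaks (2.70%) lie in duplicated sequence, and the part of multiple matches in the chromosome 14 run was not tested.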

How the data were processed

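Lists of regions from ChIP-seq of newborn lens (H3K4me2) and of αTN4 cells (control: Pax6, Pol2, H3K4me1, H3K4me2 and H3K4me3; Pax6 KD: H3K4me1, H3K4me2 and H3K4me3) were used, with 1 library per condition. Reads had been mapped with Bowtie to mm9 by the authors, with MACS2 used for sharp marks, SICER for H3K4me1, both at defaults, and a filter on blacklisted regions. Peaks carry a deposited ratio to background (fold) and deposited −log10 p and q. H3K4me1 islands carry, as deposited, a count of ChIP reads and a count of control reads, with a fold, a p-value and an FDR. The names of the control H3K4me2 peaks mention both replicates, so that list may be pooled, and those of the Pax6 KD and lens lists carry the word rep. For the Pax6 and Pol2 libraries the antibody named in the labels is that of the other, and they were assigned by title.

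Overlap was 1 bp. Promoter peaks were those at most 2 kb from a transcription start among 51733 protein-coding GENCODE vM1 transcripts (22238 genes), other peaks were distal, and a gene's promoter was lens-only where it held lens peaks, none of which met a cell peak, and no cell peak. Genes were also given peaks within 50 kb, and peaks at most 12.5 kb apart were stitched. A peak was called duplicated where at least 3 of 5 words of 32 bp around its summit occurred more than once in mm9. Sequence windows ran 100 bp to either side of the summit, with flanks centred 500 bp away. Shares have 95% Wilson intervals. No test between conditions was made. The overlap code was tested on simulated data. Software was samtools 1.23.1, pysam 0.24.0, pandas 2.3.3, NumPy 2.4.6, matplotlib 3.10.9, SciPy 1.17.1 and Python 3.11.15.

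The members and gene lists were chosen with earlier results of these data known. The rule for named items took the 10 peaks of highest −log10 q, the 5 widest, the 10 genes with most lens-only peaks (11 with a tie), the 5 largest stitched groups, the sites with Pax6, and in each gene list the lens-only promoters and the 4 members with most lens-only peaks. In lists with few such peaks, fewer than 4 are named. Sox1 did not match the annotation. Alternatives changed the overlap rule, the strength of the peaks, the promoter distance and the annotation. RNA-seq libraries were not used here. A few items that this rule takes are not reported here.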

Additional observations from a re-analysis of the deposited data

How the results depend on the processing

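No paired analysis was possible because each condition has 1 library listed. Without replicates only counting error is known, the depth of the MACS2 libraries limits which weak peaks were called in lens or cells, and it is unknown. Of 53 recomputed values, 26 moved by less than their counting interval or by less than 1.5 times for counts, and 27 moved by more; the causes were not tested. With a lens fold of at least 10 the majorities turned: lens-only peaks were 21.5% of lens peaks in place of 54.0%, most were at promoters, and the TAATTA word was at 3.33% of lens-only and 3.63% of shared distal windows in place of 6.42% and 4.47%. The alternatives without duplicated sequence, with a lens fold of at least 10 and without peaks near any annotated transcript start were chosen after seeing the data.

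With a lens fold of at least 10, 4636 lens-only peaks remained in the count, 52.1% were at promoters, 6.92% had H3K4me1 and 0.280% H3K4me3, the median width was 1328 bp and the AP-1 word was in 3.52% of distal windows. With no cell peak within 1000 bp, the promoter share was 16.1%, that with H3K4me1 9.16%, with H3K4me3 0.0917% and with Pol2 0.117%, and the median width was 493 bp. With a lens −log10 q of at least 5, the promoter share was 19.6%, H3K4me1 12.46% and the median width 608 bp. Against the control list alone, H3K4me1 was at 13.9%, H3K4me3 at 0.440% and Pol2 at 0.505%. Without duplicated sequence, H3K4me3 was at 0.256%, Pol2 at 0.327% and CpG-dense windows at 7.15%, and without peaks near any annotated transcript start the last was 6.87%. The promoter share was 13.6% within 1 kb, 26.3% within 5 kb and 22.7% with all annotated transcripts. H3K4me1 was at 12.6% with islands of an FDR of at most 1e-06. By nearest start alone 9152 genes had a lens-only peak, and at 5000 bp 379 stitched groups held 5 or more.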
